A study of Arabidopsis thaliana with 4 samples.

Results

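Plates TB00 to TB25 of a spotted genome tiling array were examined for H3K9me2, dimethylation of histone H3 at lysine 9, in Arabidopsis thaliana seedlings. Features were taken by the plate code in their identifiers, with a value required in all 4 deposited columns. This gave 2495 of the 21727 measured features of the array, and only well TB23H12 of the 2496 listed wells had no value. The range of plates was set with the ratios of these same arrays in view, so every ratio below is a description and carries no test. Plate TB25, with 96 features, is described apart from the 2399 features of TB00 to TB24.

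The material was whole seedlings of the Col-0 accession, harvested after 11 days in liquid 0.5X MS medium without treatment, at 22 °C and under a photoperiod of 16 h. DNA immunoprecipitated (IP) with an Upstate antibody against H3K9me2 was hybridised against the input DNA it was drawn from. The 2 preparations are called replicate 1 and replicate 2, and each was run on a pair of arrays with exchanged dyes. Both arrays of a pair carried identical deposited values, so n = 2. Whether separate cultures were used is not stated in the labels, and the spread between replicates may be technical. A mark on fewer cells of a seedling and a weaker mark in all its cells cannot be told apart in such material.

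In Arabidopsis, H3K9me2 is written mainly by KRYPTONITE and related SUVH methyltransferases and is read by the DNA methyltransferase CMT3, which methylates cytosines in CHG contexts. The methylated DNA in turn recruits the SUVH enzymes, so the histone mark and DNA methylation maintain each other. The mark is known for covering the dense chromatin around the centromeres, and for small patches over transposons and other repeats in the gene-rich arms.

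The values are log-scale ratios between IP and input, deposited without a stated log base or direction. They are given in the deposited log units after each replicate was centred on its median over all measured features, which was -1.39 in replicate 1 and -1.15 in replicate 2. Features are therefore called higher or lower than the array median, not enriched or depleted. A high-ratio feature is one that exceeded the array median by 1 unit or more in each replicate. An island is a stretch of at least 3 neighbouring wells, in plate, row and column order, that were all high-ratio features. The features carry no gene name, sequence or genome position in the files used here, so islands are named by their first and last well.

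Most features of TB00 to TB24 lay near the array median, and a small share lay far above it. In the mean of the replicates, 1368 features were below 0 units and 656 lay from 0 to 0.5 units. Another 178 lay from 0.5 to 1 unit, 83 from 1 to 1.5, 43 from 1.5 to 2, 34 from 2 to 2.5 and 37 at 2.5 units or more. The counts fell with each range up to 2.5 units, and the last range has no upper bound. The 5th, 50th and 95th percentiles were -0.51, -0.05 and 1.54 units in replicate 1 and -0.71, -0.06 and 1.35 units in replicate 2. The highest feature in the mean of the replicates, TB23B03, had 3.09 units in replicate 1 and 3.0 units in replicate 2.

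High-ratio features numbered 166 in TB00 to TB24, or 6.92%, against 19.2% of all measured features of the array. They numbered 37 in TB25, or 38.5%. That count was 8 with a limit of 1.5 units and 0 without centring. The count in TB00 to TB24 was 102 and 49 under the same settings. Shares of the whole array under these settings are not given here. Over TB00 to TB24, 205 features passed the limit of 1 unit in replicate 1 (8.55%, against 20.4% of the array) and 197 in replicate 2 (8.21%, against 21.1% of the array). The features passing in both made up 81.0% of the first list and 84.3% of the second. The 39 features that passed in replicate 1 alone had a median of 1.12 units there and 0.80 units in replicate 2. The 31 that passed in replicate 2 alone had a median of 1.11 units there and 0.90 units in replicate 1. Single features could lie far from the limit in the other replicate, such as TB02C03 with 1.02 units in replicate 1 and -0.01 units in replicate 2. Just inside the limit, 18 features of TB00 to TB24 had a lower replicate value of 1 to 1.1 units, and just outside it 27 had one of 0.9 to 1 unit.

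**Figure D1:**
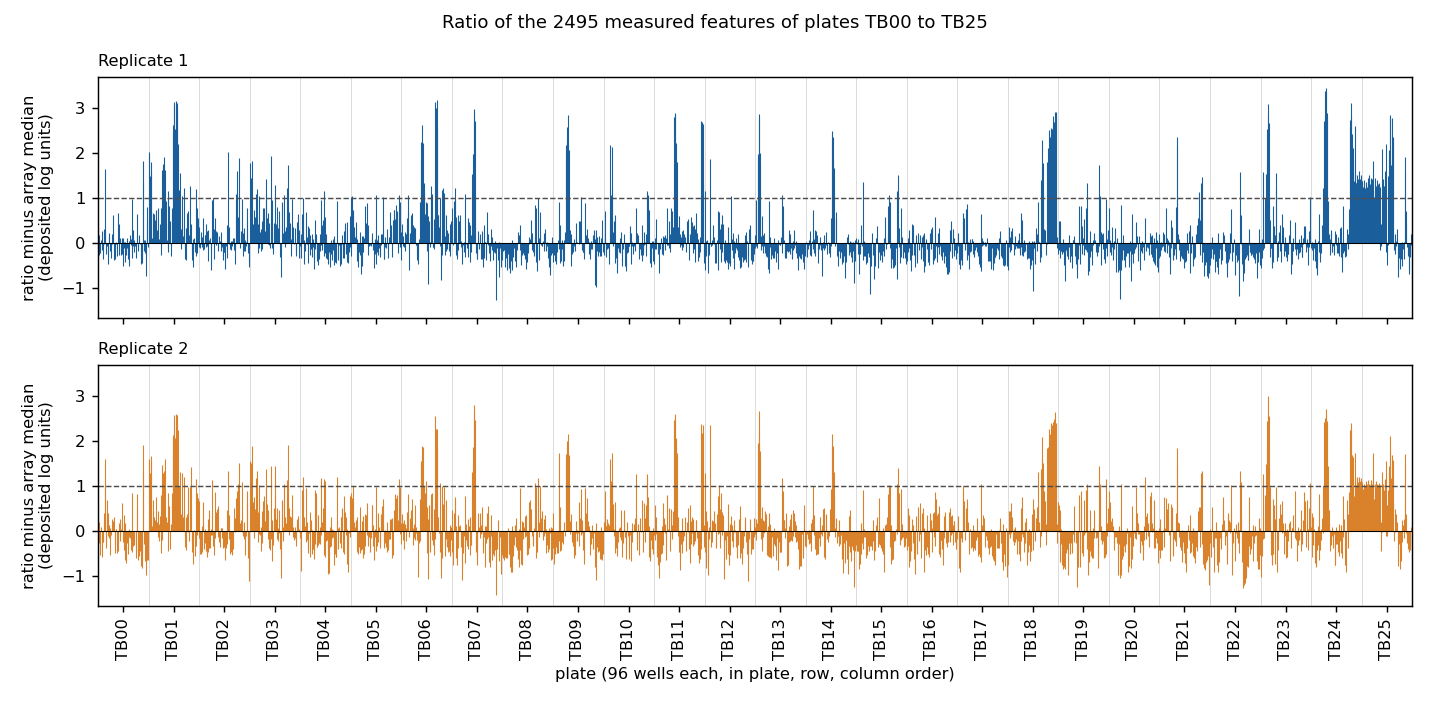
Log-scale ratio minus the array median (deposited log units) of the 2495 features in well order, replicate 1 above and replicate 2 below, with a dashed line at 1 unit and pale lines at plate borders. Narrow groups of tall lines recur at the same wells in both replicates, such as 3.09 and 3.0 units at TB23B03, and a broad flat block crosses the border of TB24 and TB25.

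The islands were short, tall and few. TB00 to TB24 held 18 of them, which took in 113 of the 166 high-ratio features (68.1%). Their median length was 5.5 wells, and 12 of the 18 were 5 or 6 wells long. The mean ratio of an island lay between 1.52 and 2.57 units, with a median of 2.15 units over the islands. By replicate, the median was 2.30 units in replicate 1 and 2.05 units in replicate 2, and all 18 islands were higher in replicate 1. Replicate 1 also had the wider spread over all measured features of the array, with an SD of 1.124 units against 1.004 units. High-ratio features outside islands were lower: the 31 that stood alone had a median of 1.22 units (1.04 to 2.12), and the 11 pairs had a median of 1.34 units (1.19 to 1.96).

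The longest island ran over 18 wells from TB18G03 to TB18H08, at a mean of 2.28 ± 0.14 units (SD, n = 2). Its first wells were uneven, with 1.81 and 1.85 units at TB18G03 in replicates 1 and 2 and only 1.05 and 1.37 units at TB18G06. From TB18G07 on, the values lay higher, up to 2.92 and 2.65 units at TB18H06. The island ended in a single step, with 2.80 and 2.34 units at TB18H08 and 0.15 and 0.17 units at TB18H09. A shorter island of 5 wells, TB18F04 to TB18F08, lay 6 wells before it at 1.63 ± 0.05 units, so plate TB18 had 23 high-ratio features.

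The next in length was TB01D10 to TB01E08, with 11 wells at 2.47 ± 0.32 units. It had a pair of crests, with 3.15 units in replicate 1 and 2.59 units in replicate 2 at TB01E01, and 3.17 and 2.60 units at TB01E05. Between them, TB01E03 dropped to 1.83 units in replicate 1 and 1.21 units in replicate 2. The dip appeared in both replicates and lies inside the island, since both values stayed above the limit. The same plate held 2 of the 3 islands with the smallest spread over their wells. TB01A01 to TB01A05 had 1.66 ± 0.17 units with an SD over wells of 0.17, and TB01C02 to TB01C07 had 1.52 ± 0.22 units with an SD over wells of 0.12. These were also among the 4 islands with a mean under 1.7 units, the others being TB18F04 to TB18F08 and TB24G11 to TB24H01.

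The tallest island by its mean was TB24B12 to TB24C07, 8 wells at 2.57 ± 0.37 units. It opened with a low well, TB24B12, at 1.22 units in replicate 1 and 1.0 in replicate 2, and its middle wells reached 3.45 and 2.61 units at TB24C04. The well after its end, TB24C08, was the reverse case, with 0.95 units in replicate 1 and 1.46 units in replicate 2, and so missed the limit in replicate 1 alone. TB06F05 to TB06F09, 5 wells at 2.55 ± 0.46 units, had a sharper start. TB06F04 lay at 0.19 and -0.17 units and TB06F05 at 3.13 and 2.55 units in replicates 1 and 2. TB24G02 to TB24G05, 4 wells at 2.55 ± 0.38 units, was as tall and opens the long raised stretch described below. The island with the highest single well, TB23A11 to TB23B04, had 6 wells. In the mean of the replicates it climbed from 1.51 units at its first well to 3.05 units at TB23B03. Its last well, TB23B04, had 2.62 units.

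**Figure D2:**
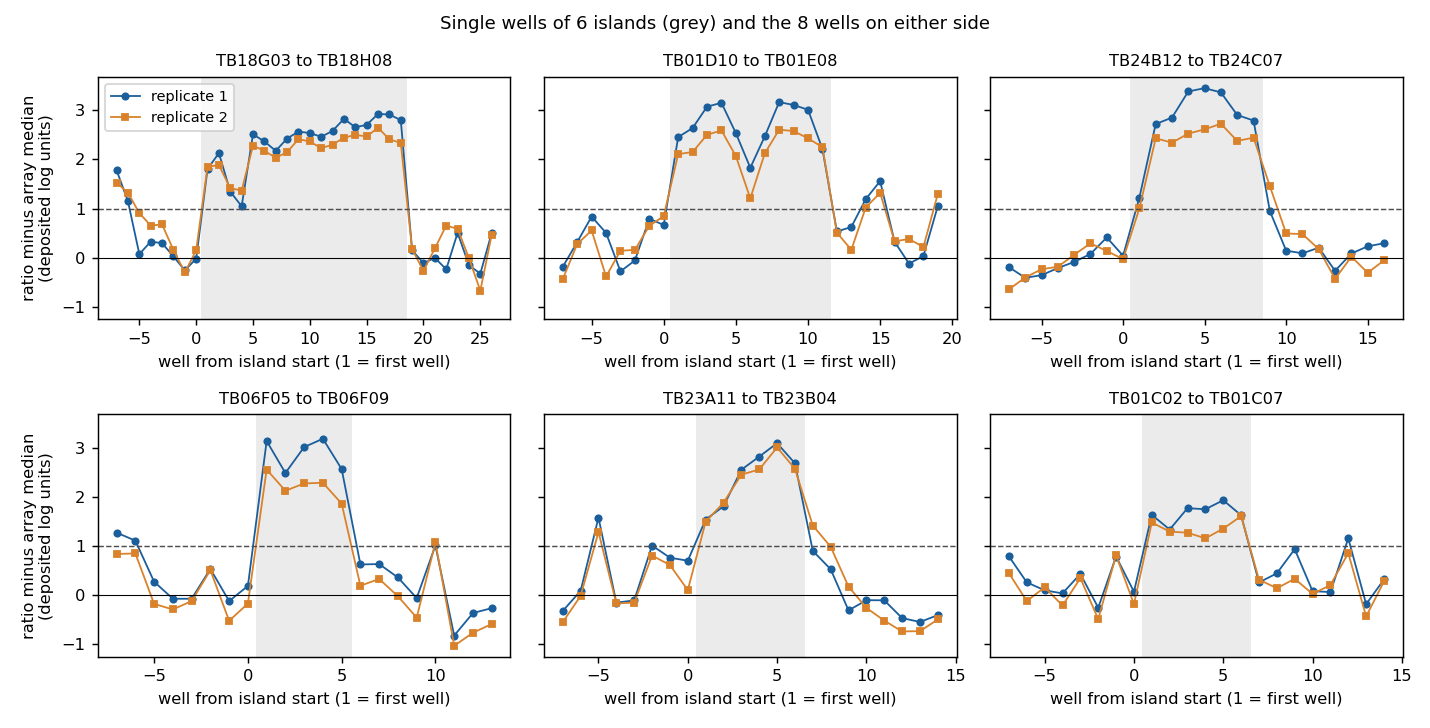
Single wells of 6 islands in replicates 1 and 2 (ratio minus array median, deposited log units) against well number from the island's first well, with the island in grey, 8 wells on either side and a dashed line at 1 unit. TB18G03 to TB18H08 ends in 1 step, TB01D10 to TB01E08 dips at TB01E03 to 1.83 and 1.21 units, and TB01C02 to TB01C07 forms a low flat top at 1.52 units.

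Island borders were steep. The well just outside an island had a median of 0.32 units over the 36 edges, and it was under 0.5 units at 22 edges, from 0.5 to 1 unit at 6, and at 1 unit or more, in the mean of the replicates, at 8. The step from the outermost island well to that neighbour had a median of 1.55 units, and 30 of the 36 steps were at least 1 unit. The definition itself requires a drop below the limit in at least 1 replicate but not its size. The inner wells of the 15 islands with at least 5 wells had a median of 2.27 units, against 1.88 units for the outermost wells, and were higher in 13 of the 15. On the leading side, the median at the first outside well was 0.15 units in replicate 1 and 0.16 units in replicate 2. On the trailing side the first outside well had a median of 0.55 units in replicate 1 and 0.60 units in replicate 2, and the fourth had 0.29 and 0.35 units. The difference between the sides was not tested, and 3 of the islands in TB24 share flanking wells.

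**Figure D3:**
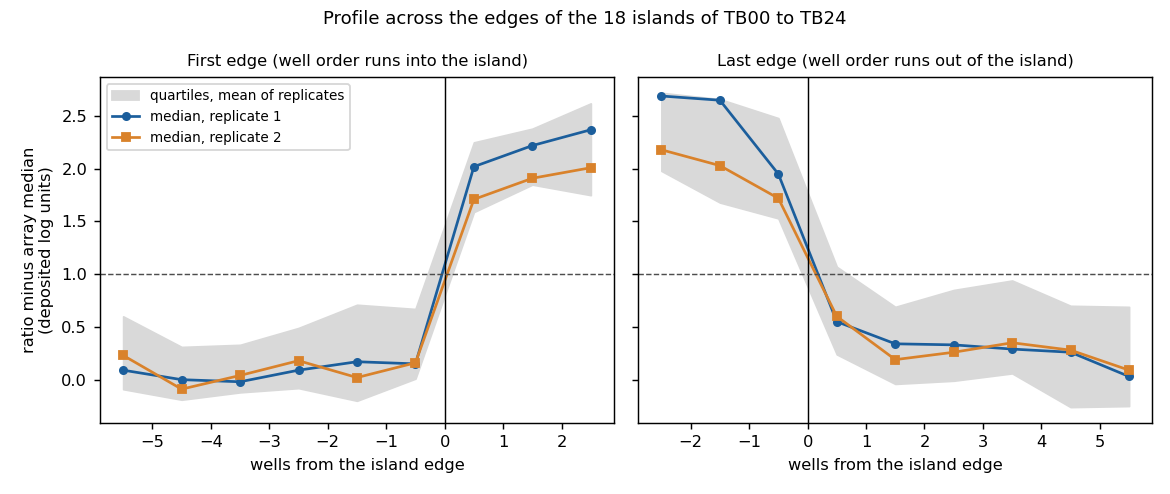
Median ratio minus array median (deposited log units) by wells from the edge of the 18 islands of TB00 to TB24, for the first edge (left) and the last edge (right) in well order, with quartiles of the mean of the replicates in grey. The first well outside lies at 0.15 and 0.16 units on the left and at 0.55 and 0.60 units on the right in replicates 1 and 2.

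Islands were spread unevenly over the plates. Of the 25 plates TB00 to TB24, 10 held the start of an island, and 4 plates (TB08, TB16, TB17 and TB20) held no high-ratio feature at all. The 6 plates with 10 or more high-ratio features held 110 of the 166 (66.3%). These were TB01 with 27, TB24 with 24, TB18 with 23, TB06 with 13, TB03 with 12 and TB11 with 11. The median distance between neighbouring islands was 65 wells. The longest was 460 wells, between TB01E08 and TB06D01, and that distance still held 21 high-ratio features, none of them in an island. The longest stretch with no high-ratio feature at all ran over 272 wells from TB15G08 to TB18F03. Its median was -0.14 units in replicate 1 and -0.12 units in replicate 2. Its highest well, TB18E09, had a mean of 1.13 units.

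Outside their high-ratio features, a few plates also lay above the others. After the high-ratio features were set aside, the remaining features of TB01 had a median of 0.26 units in replicate 1 and 0.20 units in replicate 2. Those of TB03 had medians of 0.30 and 0.17 units, and those of TB06 had 0.22 and 0.09 units. In the mean of the replicates these 3 plates lay at 0.19, 0.22 and 0.13 units, and the other 22 plates between -0.23 and 0.08 units, with a median of -0.12. Features of at least 0.5 units that were not high-ratio features made up 17.7% of TB01, 21.9% of TB03 and 22.9% of TB06. They made up 1.04% to 16.7% of the other 22 plates of TB00 to TB24. Plate TB25, described apart, had 19.8% of such features. Its remaining features had a median of 0.14 units in the mean of the replicates. TB03 had 12 high-ratio features but no island, and all 12 were single wells or pairs. Among TB00 to TB24, TB05 came next, with 16.7% of such intermediate features and a single high-ratio feature. The 3 plates were picked after the values were seen.

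**Figure D4:**
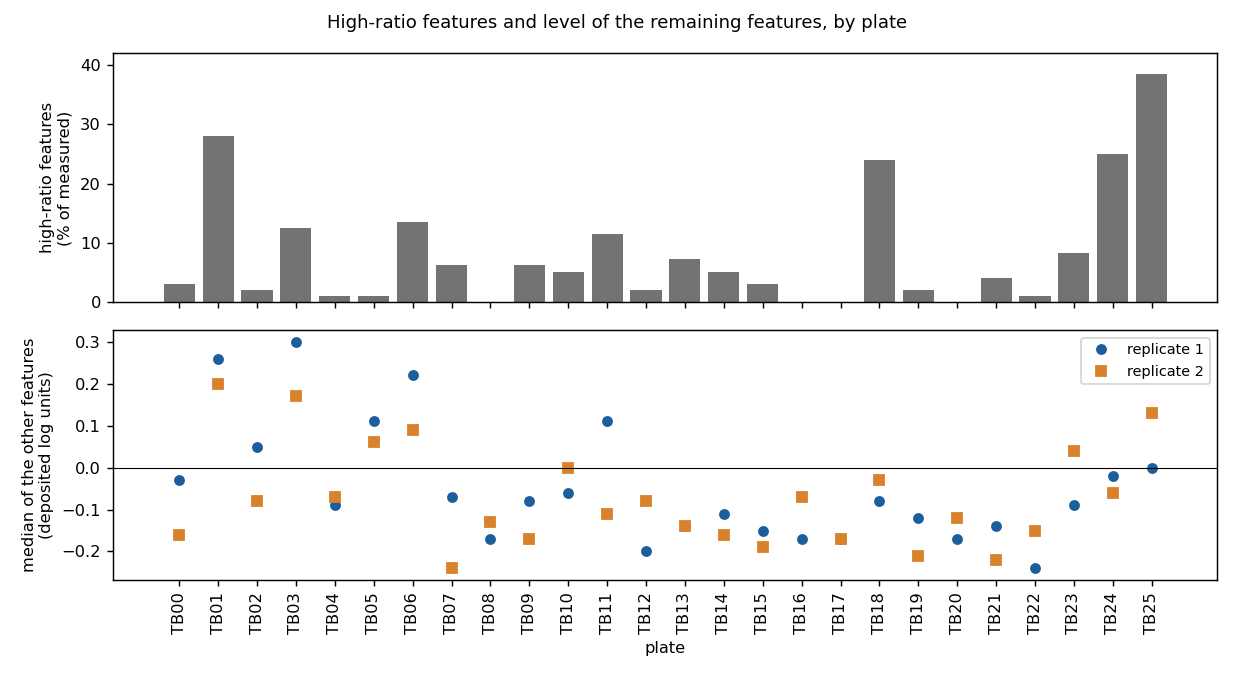
Share of high-ratio features by plate (bars, % of measured features) and, below, the median of the remaining features in replicate 1 (circles) and replicate 2 (squares), in deposited log units. TB25 has the tallest bar at 38.5%, and the remaining features of TB01, TB03 and TB06 lie above 0 in both replicates, between 0.09 and 0.30 units. Those of TB05 also lie above 0, at 0.11 and 0.06 units.

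Single high-ratio features were the more common kind of stretch, with 31 against 18 islands. The highest was TB12A11, at 1.88 units in replicate 1 and 2.36 in replicate 2 (2.12 ± 0.34, n = 2). Its neighbours lay at 0.17 and -0.08 units in the mean of the replicates, so nothing beside it was raised. The next, TB10B01, had 2.20 and 1.62 units (1.91 ± 0.41, n = 2). Its neighbour before lay at 0.30 units and the well after it at 0.98 units, just under the limit.

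In plate TB25, 21 of the 37 high-ratio features belonged to a broad, even stretch. The stretch, delimited after the values were seen, ran over 48 wells from TB24G12 to TB25C11, with 13 wells in TB24 and 35 in TB25. Its mean was 1.17 ± 0.20 units (SD, n = 2), or 1.31 units in replicate 1 and 1.02 units in replicate 2. All 48 wells passed 1 unit in replicate 1, with a range of 1.02 to 1.83 units. In replicate 2 the range was 0.71 to 1.74 units and 29 of the 48 passed. The limit of 1 unit thus cut through the middle of the replicate 2 values, and the islands and single features it gave there are pieces of the same stretch. Such pieces were TB25B09 to TB25B11, at 1.40 ± 0.13 units, and the last wells of TB24G11 to TB24H01. The 35 wells in TB25 had a mean of 1.15 units and the 13 wells in TB24 one of 1.22 units. By replicate, the means were 1.29 and 1.01 units in TB25 and 1.37 and 1.06 units in TB24. The difference was not tested.

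Among windows of 20 consecutive wells at its level, the stretch was even, but some short islands were as even. The SD of the mean ratio over its 48 wells was 0.16 units, against a median SD over wells of 0.39 units in the islands of TB00 to TB24. Those islands were shorter and taller, and TB01C02 to TB01C07, TB24G02 to TB24G05 and TB01A01 to TB01A05 had 0.12, 0.16 and 0.17 units. Among the 1564 windows of 20 consecutive wells on the array with a mean of 0.75 to 1.6 units, the median SD was 0.995 units. The 29 windows inside the stretch had SDs of 0.123 to 0.206 units. The lowest SD of such a window that shared no well with the stretch was 0.333 units, at a mean of 1.6 units. Windows with higher means could be more even, down to 0.042 units at a mean of 3.08 units from TC29A12. Windows with lower means went down to 0.113 units, with a median of 0.351 units. The window size and the range of means were chosen after the values were seen. Replicate 2 minus replicate 1 had an SD of 0.083 units over the wells of the stretch. It was 0.321 units over TB00 to TB24 and 0.269 units over the high-ratio features of TB00 to TB24. The stretch was delimited after the values of both replicates were seen, so this comparison is only a description.

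The small differences that remained inside the stretch recurred at short distances. Low wells alternated with higher ones, for example 1.09 and 0.75 units at TB25A07, 1.37 and 0.96 units at TB25A08, and 1.06 and 0.83 units at TB25A11 in replicates 1 and 2. Of the 15 local minima of replicate 1 and the 14 of replicate 2, 10 fell on the same well. Without TB25B11, which stood above the rest at 1.83 and 1.74 units, the correlation of a well with the well 3 places on was 0.51 in replicate 1 and 0.37 in replicate 2 (43 pairs). At 4 places it was 0.24 and 0.27, and at 7 places 0.39 and 0.36. At 2 places it was -0.35 and -0.45, and at 5 places -0.34 and -0.36. At 12 places, the length of a plate row, it was -0.70 and -0.47 (34 pairs). When replicate 1 was paired with the later well of replicate 2, the values were -0.45 at 2 places, 0.33 at 3, 0.39 at 4, -0.44 at 5 and 0.36 at 7. These correlations are over wells of the same arrays and were looked for after the pattern was seen. What the spotted sequences of the stretch share was not analysed here.

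The stretch was continuous with islands on its leading side. Every well from TB24G01 to TB25C11, 59 in all, passed limma's cut of 0.421 units above the median, described below. This was the longest such run in TB00 to TB25, found on the same ratios, so it is only a description. Within its first wells lay the islands TB24G02 to TB24G05, TB24G07 to TB24G09 at 1.81 ± 0.43 units, and TB24G11 to TB24H01 at 1.57 ± 0.37 units. They were parted by single wells under the limit in 1 replicate, TB24G06 at 0.92 and 1.11 units and TB24G10 at 1.39 and 0.80 units. The stretch ended abruptly. TB25C11 had 1.26 units in replicate 1 and 1.03 in replicate 2, and TB25C12 had -0.14 and 0.07 units.

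**Figure D5:**
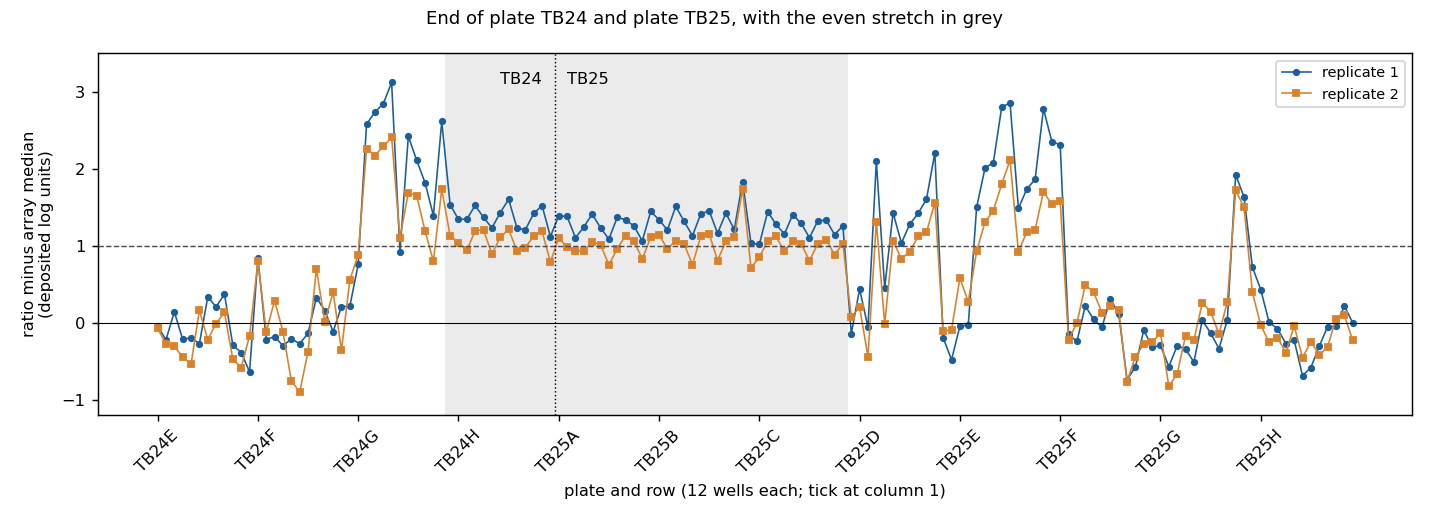
Ratio minus array median (deposited log units) of single wells from TB24E01 to TB25H12 in replicate 1 (circles) and replicate 2 (squares), with TB24G12 to TB25C11 in grey, the plate border dotted and 1 unit dashed. Inside the grey stretch replicate 1 averages 1.31 and replicate 2 averages 1.02 units, with the same small ups and downs in both.

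The remaining 61 wells of TB25, from TB25C12 on, returned to an island pattern. Of these, 16 were high-ratio features (26.2%), and the median was 0.14 units in the mean of the replicates. The main features were TB25E04 to TB25E07, at 2.05 ± 0.54 units, and TB25E09 to TB25F01, at 1.82 ± 0.54 units. They were parted by TB25E08, at 1.48 units in replicate 1 and 0.92 units in replicate 2, and TB25E03 before them had 1.5 and 0.93 units. In replicate 1 alone the 11 wells from TB25E03 to TB25F01 formed an unbroken island. TB25D08 to TB25D10, at 1.51 ± 0.32 units, ended with TB25D10 at 2.21 and 1.56 units, next to TB25D11 at -0.20 and -0.11 units. The gap between replicates was wide in these islands: 2.44 against 1.67 units in TB25E04 to TB25E07, and 2.21 against 1.44 units in TB25E09 to TB25F01. At the end of the range, TB25H12 had a mean of -0.12 units, and the first wells outside it, TB26A01 and TB26A02, had means of 1.23 and 1.11 units. At its start, TB00A01 had a mean of 0.45 units and TA99H12, just outside, had -0.11 units.

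Calls against the array median were made with limma over all 21727 measured features. All features shared an SD of 0.256 units in that fit, so the call amounted to a distance of at least 0.421 units from the median. At an adjusted p under 0.05, 473 features of TB00 to TB25 were called above the median (19.0%), against 28.9% of the array. Another 284 (11.4%) were called below it, against 11.7% of the array. These splits depend on the centring: 116 above and 2221 below without centring, and 687 above and 90 below with centring on the mode. The matching shares of the whole array are not given here. All 203 high-ratio features were among the calls above, together with 270 that missed the limit of 1 unit. In TB25, 56 of 96 were called above (58.3%), including all 35 wells of the even stretch. Since the plates were chosen on the same ratios, nothing is read from these shares.

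The replicates were correlated across features, which are not independent of each other. Over the 2399 features of TB00 to TB24, Pearson's r was 0.880 and rho, by Spearman, was 0.709. Over the 96 features of TB25 they were 0.961 and 0.951. Replicate 2 minus replicate 1 had a median of -0.27 units among the high-ratio features of TB00 to TB24 and of -0.04 units among the others. Over the whole array this median was -0.11 units. When islands were taken from replicate 1 alone, there were 22. In replicate 2 their means ran from 0.77 to 2.33 units with a median of 1.79, against 2.12 in replicate 1 itself. Replicate 2 had no part in choosing these islands within the plates. The plates themselves were chosen with the ratios of both replicates in view, so this is no independent check. Of these 22 islands, 18 (81.8%) touched an island taken from replicate 2 alone, and 18 of the 19 from replicate 2 (94.7%) touched one from replicate 1.

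Islands of like median height and length occurred in other plates with few high-ratio features. Such features made up 8.59% of TA67 to TA99 and 1.75% of TB26 to TC13, against 6.92% of TB00 to TB24. TB00 to TB24 had 0.75 islands per 100 features, against 0.79 in the plates before, TA67 to TA99, with 25 islands among 3166 features. Median length was 5.5 wells in TB00 to TB24 and 5.0 wells in TA67 to TA99. Median height was 2.15 units in TB00 to TB24 and 2.16 units in TA67 to TA99. Heights ran from 1.52 to 2.57 units in TB00 to TB24 and more widely, from 1.13 to 3.11 units, in TA67 to TA99. The plates after, TB26 to TC13, had 15 islands among 8378 features, or 0.179 per 100. Their median length was 5.0 wells and their median height 2.27 units, with a range of 1.39 to 2.77 units. Single high-ratio features made up 18.7% of all high-ratio features in TB00 to TB24, 31.6% in TA67 to TA99 and 42.9% in TB26 to TC13. The remaining features had medians of -0.09 units in TB00 to TB24, -0.10 units in TA67 to TA99 and -0.18 units in TB26 to TC13. The ranges of plates were drawn from these values, so the differences carry no test.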

How the data were processed

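The authors deposited 1 score per feature and array, a log-scale ratio between IP and input. Amplified DNA was labelled with Cy3 and Cy5, per the labels' protocols. How the arrays were made, background-corrected and normalized, and the log base and direction, is not given in the sources used here. Signal over background is unknown without intensities, and the 4 arrays limit the precision. All 21727 measured features held identical values in both arrays of a dye-exchanged pair, which were averaged to 1 value per replicate.

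Each replicate was centred on its median over all measured features. limma 3.58.1 (R 4.3.3) compared the replicates' mean with 0 (two-sided), adjusting by Benjamini-Hochberg over all 21727 features. It was tested on simulated data with large shifts and the same spread for all features, which does not check calls near the threshold. Its prior degrees of freedom were infinite, so all features shared 1 spread. Islands were allowed to cross plate borders, which none did, and a well without a value ended them. Other steps used Python 3.11.15, NumPy 2.4.6 and pandas 2.3.3.

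Named were islands of at least 8 wells, the 3 islands with the highest mean, the islands of TB25, the 2 highest single high-ratio features and the 2 lowest called features. Other wells were named after their values were seen. The members, limits and lists were chosen with earlier results of these data known. Alternatives covered centring, quantile normalization, limits, island rules, limma settings and single replicates. Gene names and positions were not analysed, because the gene table used here shares no identifier with the features.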

Additional observations from a re-analysis of the deposited data

How the results depend on the processing

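Without centring, there were 49 high-ratio features in TB00 to TB24 and 0 in TB25. Islands then numbered 8, the longest of 11 wells, at a median height of 1.44 units, and the even stretch from TB24G12 to TB25C11 had a mean of -0.10 units, below 0. limma without centring called 116 features above and 2221 below. Centring on the mode, which lay at -0.146 units from the median in replicate 1 and at -0.218 units in replicate 2, gave 90 calls below. An adjusted p under 0.01 gave 132 calls below. limma's treat against 0.5 units gave 10 below and 271 above. With the sign turned, 284 were above and 473 below. A limit of 1.5 units gave 102 high-ratio features in TB00 to TB24 and 8 in TB25, with islands at a median of 2.47 units. A limit of 0.75 units gave islands at 1.83 units. With limma calls in place of the limit there were 39 islands at a median of 1.20 units. Leaving out a replicate gave a median island height of 1.85 to 2.12 units. Leaving out the even stretch, an alternative added after the data were seen, gave 16 high-ratio features in TB25. The other 46 values of these counts and heights stayed within 1.5 times the count or 1 SD between replicates. Whole-array shares under these alternatives are not given here. No paired analysis was possible because there is a single group, and leaving out a replicate leaves no limma test.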

Other observations

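Low features of TB00 to TB25 also occurred in runs. limma called 284 features below the median, or 11.4%, which was near the 11.7% of the array. The share was 14.7% in TA67 to TA99 and 16.8% in TB26 to TC13. The 284 features had a median of -0.52 units, and 24 runs held at least 3 of them in neighbouring wells. Runs in other plates are not given here. The longest ran over 8 wells from TB22F02 to TB22F09, at a mean of -0.71 units, and TB22 had the largest share of calls below among the plates, 28.1%, against a median of 10.5% over TB00 to TB24. Of the lowest features, TB07G12 had -1.27 units in replicate 1 and -1.4 in replicate 2, between neighbours at -0.29 and -0.23 units, and TB20B10 had -1.24 and -1.03 units, next to wells at -0.40 and -0.79 units. The direction of the ratio is unstated and the calls below numbered 90 with centring on the mode, so these values are only a description.

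Features under the high-ratio limit resembled their neighbours as well. Among the features of TB00 to TB24 that were not high-ratio features, the correlation of a well with the next was 0.38 over 2172 pairs, and 0.19 with the well after that. With each plate's median subtracted, the value for the next well was 0.32. Between a well in replicate 1 and the next well in replicate 2 it was 0.26. At 12 wells, the same column of the next row, it was 0.06. All pairs share the same arrays.

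High-ratio features of TB00 to TB24 varied in share over the plate grid. They made up 8.38% of the features in columns 1 to 8 (134 of 1600) and 4.01% in columns 9 to 12 (32 of 799). Over the whole array these shares were 19.4% and 18.8%. The remaining features had a median of -0.09 units in both sets of columns. The 18 islands hold most of these features, so few independent stretches lie behind the counts, and the difference was not tested. Of the islands, 13 lay within a single row and 5 crossed the end of a row.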
